A study of Homo sapiens with 24 samples.

Results

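SNAI1, SNAI2 (which encodes Slug), TWIST1, ZEB1, ZEB2, CDH1, CDH2, VIM and FN1 are the core genes by which epithelial-mesenchymal transition is usually scored, and their RNA was measured here in 2 prostate cancer cell lines exposed to androgen after silencing of an ETS transcription factor. The members were all probe sets annotated to these 9 genes on the Affymetrix HG-U133 Plus 2.0 expression array, 25 of 54675 probe sets. The 24 arrays form 8 groups of 3 biological replicates, lettered A to C. VCaP cells, which carry a fusion that drives ERG, were transfected with siControl or siERG. LNCaP cells, which carry a rearranged ETV1, received shControl or shETV1, and the labels also name this control siControl. In all 8 groups the cells were kept for 2 days without hormone, beginning 24 h after RNA interference, and then for 16 h with ethanol vehicle (EtOH) or with 10 nM dihydrotestosterone (DHT), the most potent natural androgen. Both controls and knockdowns therefore share the hormone depletion. The labels do not state the sequences of the interfering RNAs, nor whether the LNCaP cells were pools or clones.

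In epithelial-mesenchymal transition, epithelial cells loosen their junctions, lose apical-basal polarity and take on a migratory form with a different cytoskeleton and matrix. Transcription factors of the SNAI, TWIST and ZEB families stand at the top of the programme: SNAI and ZEB proteins bind E-box sequences and repress E-cadherin, encoded by CDH1, while N-cadherin (CDH2), vimentin (VIM) and fibronectin (FN1) are the classical mesenchymal readouts. In prostate tumours the programme is studied in connection with invasion, ETS fusions and androgen withdrawal.

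Among the genes bright enough to test, 6 in VCaP and 5 in LNCaP, changes went in both directions. DHT raised SNAI2 in both lines, though in LNCaP SNAI2 could be tested only because its DHT arrays were bright. FN1 was lowered by DHT in both lines, and TWIST1 was raised in LNCaP. CDH2 was measurable in VCaP alone, where DHT lowered its brighter probe set while the second did not pass. CDH1 passed the test in no comparison. Silencing ERG in VCaP was accompanied by higher SNAI2 and, in EtOH, by higher FN1. Silencing ETV1 in LNCaP was accompanied by lower TWIST1, VIM and FN1. The calls for VIM after shETV1, for FN1 after siERG and for FN1 after shETV1 in DHT were lost under several other ways of processing the data. VIM also fell with DHT in VCaP siControl cells, a call lost under 16 of 23 alternatives. SNAI1, ZEB1 and ZEB2 stayed below the median intensity of every array.

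Values are the deposited intensities, a linear brightness per probe set with no unit. A gene was represented by its probe set of highest mean and was tested where it exceeded the array's median intensity in at least 3 of the 12 arrays of its line, which kept 12840 genes in VCaP and 12823 in LNCaP. Changes are differences of means of log2(intensity + 16), given ± SE with n = 3 arrays a group. The added 16 shrinks the changes of dim genes. Each line was fitted with limma and p-values were adjusted by Benjamini-Hochberg over all genes tested in that line. A gene rose or fell where this adjusted p was below 0.05. With 3 against 3 arrays an exact permutation test cannot go below 0.1, so none was used for single genes, and the p-values measure the spread between these replicate arrays. Array medians ran from 47.6 to 53.2 in VCaP and from 42.7 to 44.8 in LNCaP, so levels are not compared between lines.

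The labels were checked first. ERG was 1031 ± 82.3 (SD, n = 3) in siControl and 576 ± 13.5 in siERG cells in EtOH, a change of -0.82 ± 0.06, and the change in DHT was -1.09 ± 0.06. ETV1 changed by -0.61 ± 0.07 in EtOH and -0.62 ± 0.07 in DHT in LNCaP. All 10 measured luminal prostate markers exceeded the array median in every VCaP array and 8 of 10 in every LNCaP array, whereas 4 of 5 basal markers did so in no array. Of 16 fibroblast, endothelial and leukocyte markers, 10 exceeded the array median in no VCaP array and 9 in no LNCaP array. The mean correlation of each array with the other arrays of its group lay between 0.992 and 0.994, and no 2 arrays were identical.

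Of the 9 genes, 6 passed the intensity limit in VCaP (SNAI2, TWIST1, CDH1, CDH2, VIM, FN1) and the same genes without CDH2, 5 in all, in LNCaP. SNAI2 passed in LNCaP only through its 6 DHT arrays, so it could enter the LNCaP tests only by being high there. In bulk RNA, a change in the number of cells that express a gene and a change in RNA per cell cannot be told apart. After siERG in EtOH, SNAI2 and FN1 rose and none of the 6 fell (11.2% of all genes tested were called in either direction). After siERG in DHT, SNAI2 alone rose (8.97% of all genes called). With DHT, SNAI2 rose and CDH2, VIM and FN1 fell in siControl cells (45.0% called), and SNAI2 rose while CDH2 and FN1 fell in siERG cells (45.3% called). After shETV1, TWIST1, VIM and FN1 fell in EtOH (4.20% called) and again in DHT (5.19% called). With DHT, SNAI2 and TWIST1 rose and FN1 fell in shControl cells (40.8% called) and in shETV1 cells (37.9% called). By limma no member passed the test of the interaction, that is of whether DHT acted differently after knockdown, in VCaP (0.288% called, 37 genes) or in LNCaP (0.101% called, 13 genes). At an unadjusted p below 0.05 this test would take SNAI2, CDH2 and FN1 in VCaP and FN1 in LNCaP. The 4 DHT comparisons called 37.9% to 45.3% of all genes, so a DHT call by itself does not set a member apart.

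**Figure D1:**
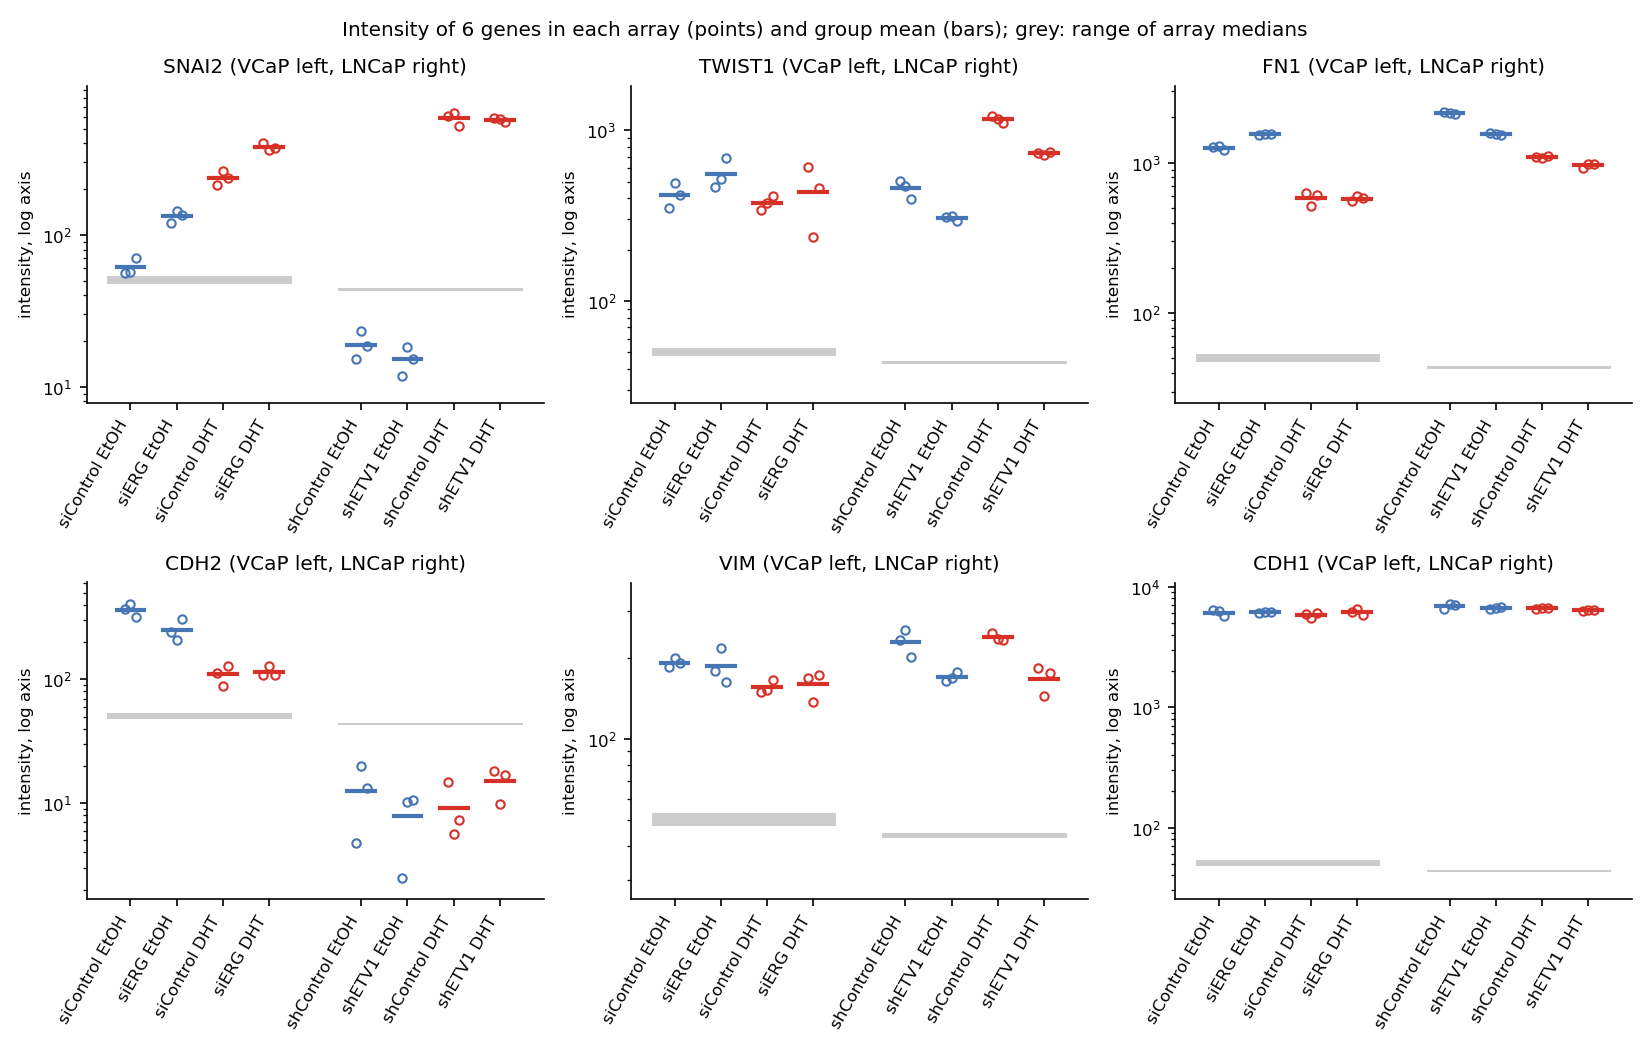
Intensity (log axis) of SNAI2, TWIST1, FN1, CDH2, VIM and CDH1 in each of the 24 arrays, by group; points are arrays, bars are group means of 3 and the grey bands span the array medians of each line. SNAI2 climbs through the 4 VCaP groups without overlap, while the points of CDH1 stay between 5531 and 7215.

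SNAI2 encodes Slug, a zinc finger repressor of epithelial genes that is also used in neural crest and in basal epithelium. Its single probe set, 213139_at, read 55.7, 57.2 and 70.8 in replicates A, B and C of VCaP siControl in EtOH and 119.8, 144 and 135 after siERG. In DHT it read 214, 263 and 236 in siControl and 405, 361 and 374 in siERG cells. The 4 groups stood in this order with no overlap between neighbours, the lowest lying just above the array medians. siERG raised SNAI2 by 0.95 ± 0.10 in EtOH (limma adjusted p = 0.000192) and by 0.65 ± 0.10 in DHT (adjusted p = 0.00203). DHT raised it by 1.72 ± 0.10 in siControl cells (adjusted p = 2.17e-07), a ratio of mean intensities of 3.88, and by 1.41 ± 0.10 in siERG cells (adjusted p = 8.81e-07). Silencing ERG and adding DHT thus each moved SNAI2 upward, and the interaction was -0.30 ± 0.14 with an adjusted p of 0.451.

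In LNCaP the same probe set was dim without hormone and bright with it. It read 15.1, 23.2 and 18.4 in shControl and 11.7, 18.3 and 15.3 in shETV1 cells in EtOH, all below the array medians. With DHT it read 606, 638 and 519 in shControl and 587, 582 and 552 in shETV1 cells. No EtOH value came near a DHT value, and shControl and shETV1 overlapped under both treatments. The change with DHT was 4.11 ± 0.10 in shControl (limma adjusted p = 2.30e-10) and 4.25 ± 0.10 in shETV1 cells (adjusted p = 1.93e-10). SNAI2 could enter the LNCaP tests only through its bright DHT arrays, so these p-values are no independent support for the rise. Because the EtOH values are dim, the size of the change depends on the added constant. Over the alternatives tried it ran from 2.97 to 4.70 in shControl cells. shETV1 left SNAI2 with changes of -0.17 ± 0.10 in EtOH (95% interval -0.39 to 0.06) and -0.03 ± 0.10 in DHT (-0.26 to 0.20), neither of which passed.

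TWIST1, a basic helix-loop-helix factor of mesoderm that is reactivated in invasive carcinomas, was bright in both lines and orderly in LNCaP. Its probe set 213943_at read 502, 472 and 394 in shControl and 312, 316 and 295 in shETV1 cells in EtOH. With DHT the values were 1209, 1164 and 1104 in shControl and 735, 720.2 and 744 in shETV1 cells. All 4 LNCaP groups were separate, with shETV1 below shControl under either treatment and DHT above EtOH with either hairpin. DHT raised TWIST1 by 1.32 ± 0.08 in shControl (limma adjusted p = 1.52e-07) and by 1.21 ± 0.08 in shETV1 cells (adjusted p = 3.52e-07). shETV1 lowered it by a log2 change of -0.54 ± 0.08 in EtOH (adjusted p = 0.00269) and -0.65 ± 0.08 in DHT (adjusted p = 0.000834). The interaction was -0.11 ± 0.11 and did not pass. The GAPDH 3' to 5' ratio of intensities, a sign of RNA integrity, was 1.08 to 1.13 in shControl and 1.05 to 1.09 in shETV1 cells in EtOH. Adjusted for the log2 of this ratio, the EtOH change of TWIST1 was -0.54 with an adjusted p of 0.0548, in a range of 6.15e-05 to 0.0548 over all alternatives.

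In VCaP, TWIST1 scattered. It read 348, 488 and 415 in siControl and 465, 515 and 685 in siERG cells in EtOH, then 342, 376 and 411 in siControl and 610.2, 236 and 458 in siERG cells in DHT. All neighbouring groups overlapped, and within siERG in DHT the values of replicates A and B lay furthest apart. No VCaP change passed: siERG in EtOH gave 0.39 ± 0.28 (95% interval -0.23 to 1.01) and DHT in siControl cells gave -0.13 ± 0.28 (-0.75 to 0.49). The intervals are wide, so moderate changes of TWIST1 were not detectable in VCaP.

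SNAI1 (Snail), ZEB1 and ZEB2, the other canonical repressors of CDH1, exceeded the array median with none of their 10 probe sets in any of the 24 arrays and were not tested. SNAI1 read 14.5, 13.8 and 34.6 in VCaP siControl in EtOH and 9.12, 5.08 and 1.72 in siControl with DHT, and ranged from 1.86 to 13.9 in LNCaP. These EtOH and DHT values did not overlap, all below the array medians. The brightest ZEB1 probe set, 212758_s_at, read 16.8, 17.1 and 23.5 in VCaP siControl and 33.9, 37.7 and 34.9 in siERG cells in EtOH, again without overlap. With DHT its values were 21.2, 25.2 and 23.5 in siControl and 35.5, 30.5 and 25.2 in siERG cells, which met at 25.2. In LNCaP it ranged from 12.4 to 39.7 with all groups overlapping. The other 3 ZEB1 probe sets reached at most 22.8 and the 5 ZEB2 probe sets at most 30.4. A reading below the array median is not proof that the RNA is missing, and these numbers are given without a test.

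The promoters of FN1, CDH2 and VIM are shown because these are the downstream readouts whose RNA moved with DHT or knockdown. They are the 250 bases before the most upstream RefSeq start matched for each gene, in assembly GRCh38.p14. Their positions are chr2:215436069-215436318 (minus strand) for FN1, chr18:28177131-28177380 (minus strand) for CDH2 and chr10:17227991-17228240 (plus strand) for VIM. Windows at any other start of these genes are not shown, nor are their matches. RefSeq promoters were matched for 5 of the 9 genes. Capitals mark matches to 4 motifs searched on both strands: the E-box CAGGTG or CACCTG bound by SNAI and ZEB proteins, the androgen receptor half-site AGAACA or TGTTCT, the cAMP response element TGACGTCA, and the ETS site CCGGAAGT or ACTTCCGG.
FN1: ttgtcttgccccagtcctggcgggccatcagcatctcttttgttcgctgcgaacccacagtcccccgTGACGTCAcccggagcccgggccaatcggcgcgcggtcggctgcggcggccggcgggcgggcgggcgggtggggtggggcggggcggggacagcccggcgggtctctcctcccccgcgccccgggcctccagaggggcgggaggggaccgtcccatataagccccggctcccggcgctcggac
CDH2: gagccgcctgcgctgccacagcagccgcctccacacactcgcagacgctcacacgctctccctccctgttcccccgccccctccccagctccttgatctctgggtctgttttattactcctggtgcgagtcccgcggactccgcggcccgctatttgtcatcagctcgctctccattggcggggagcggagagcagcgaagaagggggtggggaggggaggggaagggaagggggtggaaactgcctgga
VIM: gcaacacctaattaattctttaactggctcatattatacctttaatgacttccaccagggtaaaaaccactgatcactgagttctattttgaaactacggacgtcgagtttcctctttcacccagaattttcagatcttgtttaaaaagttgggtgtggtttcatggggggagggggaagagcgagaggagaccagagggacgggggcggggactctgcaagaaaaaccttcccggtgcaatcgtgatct
The only match in the 3 windows was the cAMP response element of FN1, at bases -183 to -176 from the start. Among 35116 RefSeq promoter windows of the same length, the E-box is present in 17.5%, the androgen receptor half-site in 12.4%, the cAMP response element in 1.65% and the ETS site in 3.42%. A match is a description of letters in this window and no evidence of binding.

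CDH1 encodes E-cadherin, the adhesion protein of epithelial junctions whose loss is a common mark of the transition. It was bright in every array: probe set 201131_s_at ranged from 5531 to 6466 in VCaP and from 6295 to 7215 in LNCaP. In VCaP it read 6362, 6263 and 5663 in siControl with EtOH and 5898, 5531 and 6039 with DHT. In LNCaP it read 6546, 7215 and 7037 in shControl with EtOH and 6568, 6655 and 6660.5 with DHT. These EtOH and DHT values overlapped in both lines. In LNCaP the shETV1 values with DHT (6295, 6385 and 6413) lay just below those of shControl with DHT and of shETV1 in EtOH, without overlap. The 8 changes with DHT or knockdown lay between -0.07 and 0.08. The 95% intervals were narrow, -0.20 to 0.07 for DHT in siControl and -0.16 to 0.03 for DHT in shControl cells. After quantile normalization, however, CDH1 fell in LNCaP with DHT, by a log2 change of -0.14 in shControl (adjusted p = 0.0185, range over alternatives 0.0185 to 0.667) and -0.12 in shETV1 cells (adjusted p = 0.0354, range 0.0354 to 0.829). The second probe set, 201130_s_at, ranged from 170.03 to 233 and passed in no comparison.

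CDH2 encodes N-cadherin, the mesenchymal counterpart of CDH1. Probe set 203440_at read 367, 404 and 319 in VCaP siControl and 242, 207 and 308.5 in siERG cells in EtOH. With DHT it read 113, 88.9 and 128 in siControl and 108, 127.5 and 109 in siERG cells. All DHT values lay below all EtOH values, and both DHT groups overlapped. DHT changed CDH2 by -1.60 ± 0.15 in siControl (limma adjusted p = 1.01e-05) and by -1.02 ± 0.15 in siERG cells (adjusted p = 0.000252). siERG gave -0.51 ± 0.15 in EtOH (adjusted p = 0.0543), just outside the threshold although the groups did not overlap, and 0.06 ± 0.15 in DHT. The EtOH change passed with the mean of both probe sets (-0.49, adjusted p = 0.0216), with log2(intensity + 64) (0.0336), after quantile normalization (0.0426) or median centring (0.0329) and with a trended, robust variance (0.0359). It also passed without siERG EtOH replicate C (-0.65, 0.0252) and without siControl DHT replicate B (-0.51, 0.0437), in a range of 0.0216 to 0.209 over alternatives.

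The second CDH2 probe set, 203441_s_at, differed from the first in its DHT changes and was close to it after siERG. It ranged from 32.7 to 85.7 in VCaP, near the array medians. Its changes with DHT were -0.03 ± 0.20 in siControl and 0.50 ± 0.20 in siERG cells, neither of which passed. In siERG cells it read 32.7 to 53.2 in EtOH and 55.1 to 74.2 with DHT, without overlap (limma adjusted p = 0.0694). That direction is opposite to that of 203440_at. After siERG the second probe set gave -0.46 ± 0.20 in EtOH (adjusted p = 0.181) and 0.07 ± 0.20 in DHT. Averaging both probe sets left DHT in siERG cells at -0.26 (adjusted p = 0.0868). Adjusted for the GAPDH ratio, this change was -0.78 (adjusted p = 0.116), in a range of 6.48e-05 to 0.116 over alternatives. That ratio was 1.07 to 1.11 in siERG cells in EtOH and 1.02 to 1.04 with DHT. The same ratio for ACTB was further from even, at 2.63 to 3.53 in siERG cells in EtOH and 2.49 to 3.06 with DHT. In siControl cells with DHT the ACTB ratio was 3.46 to 3.56, above the siERG values with DHT without overlap. In LNCaP neither probe set exceeded the array median in any array. 203440_at ranged from 2.50 to 19.9 there, with every group overlapping, so CDH2 was not tested in LNCaP.

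VIM encodes vimentin, the intermediate filament of mesenchymal cells. Probe set 201426_s_at read 233, 255 and 203 in LNCaP shControl and 164, 169 and 177 in shETV1 cells in EtOH, and 249, 235 and 234 in shControl and 183, 145 and 176 in shETV1 cells with DHT. shETV1 lay below shControl under both treatments with no overlap, and EtOH and DHT overlapped within each. shETV1 lowered VIM by a log2 change of -0.40 ± 0.09 in EtOH (limma adjusted p = 0.0335) and -0.48 ± 0.09 in DHT (adjusted p = 0.0136). DHT changes in LNCaP were 0.06 ± 0.09 and -0.02 ± 0.09. The EtOH change was -0.10 (adjusted p = 0.700) with the mean of both probe sets, the second of which is dim, and -0.46 (adjusted p = 0.171) when adjusted for the GAPDH ratio, which was 1.08 to 1.13 in shControl and 1.05 to 1.09 in shETV1 cells. Its call was also lost without shControl EtOH replicate A (-0.39, adjusted p = 0.112) or B (-0.33, 0.0797), without shETV1 EtOH replicate A (-0.38, 0.107), B (-0.39, 0.0954) or C (-0.43, 0.0675), and without shControl DHT replicate B (-0.40, 0.0507), in a range of 0.00395 to 0.700 over alternatives. The DHT call was lost without shControl DHT replicate A (-0.45, adjusted p = 0.0522, range 0.00287 to 0.103). It was also lost with only the groups compared (limma adjusted p = 0.0509) and with the mean of both probe sets (0.103).

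In VCaP, VIM read 185, 199.6 and 192 in siControl with EtOH and 150.15, 152 and 166 with DHT, without overlap. The siERG values were 179, 218 and 163 in EtOH and 168, 138 and 174 with DHT, and overlapped. DHT gave -0.27 ± 0.10 in siControl (limma adjusted p = 0.0482) and -0.20 ± 0.10 in siERG cells (adjusted p = 0.135). The first call was lost without any 1 of siControl EtOH replicates A (-0.30, adjusted p = 0.0702), B (-0.25, 0.126) or C (-0.27, 0.0976), siERG EtOH replicate A (-0.27, 0.0609), siControl DHT replicates A (-0.25, 0.126), B (-0.26, 0.112) or C (-0.32, 0.0552), or siERG DHT replicate A (-0.27, 0.0563), and over all alternatives its adjusted p ran from 0.00751 to 0.191. In all, the siControl call was lost under 16 of 23 alternatives. These include quantile normalization (limma adjusted p = 0.0936), median centring (0.0842) and the GAPDH (0.138) and ACTB (0.0761) ratios as covariates. The second VIM probe set, 1555938_x_at, reached at most 18.8 and was not tested.

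FN1 encodes fibronectin, the matrix glycoprotein that mesenchymal cells assemble around themselves. Its chosen probe set, 216442_x_at, read 1278, 1285 and 1217 in VCaP siControl and 1518, 1551 and 1564 in siERG cells in EtOH. With DHT it read 625.5, 518 and 608 in siControl and 555, 598 and 581 in siERG cells. Every DHT value lay below every EtOH value, and siControl and siERG, separate in EtOH, overlapped with DHT. FN1 fell with DHT by a log2 change of -1.09 ± 0.07 in siControl (limma adjusted p = 3.56e-07), a ratio of mean intensities of 0.463, and -1.39 ± 0.07 in siERG cells (adjusted p = 6.91e-08). siERG raised it by 0.29 ± 0.07 in EtOH (adjusted p = 0.0180) and gave -0.01 ± 0.07 in DHT. The interaction, -0.30 ± 0.09, did not pass (adjusted p = 0.273). The call for siERG in EtOH was lost without siControl EtOH replicate C (0.27, adjusted p = 0.0649), siERG EtOH replicate B (0.29, 0.0612) or siERG EtOH replicate C (0.28, 0.0624), and ranged from 0.00345 to 0.185 over alternatives. The GAPDH ratio was 1.04 to 1.06 in siControl and 1.07 to 1.11 in siERG cells in EtOH, and with it as a covariate the FN1 change was 0.31 (adjusted p = 0.184). Summed intensity of the 16 fibroblast, endothelial and leukocyte markers was 862 to 943 in siControl and 652 to 745 in siERG cells in EtOH, the lower sum standing beside the higher FN1. LYZ, a leukocyte lysozyme, was the member of that list with the smallest adjusted p (-1.22 ± 0.14, adjusted p = 0.000442). It alone of the 16 exceeded the array median in every VCaP array (117 to 449), so it weighs most in the sum. Of the 6 markers tested, 1 rose and 2 fell (11.2% of all genes called). The part of these markers in the FN1 change was not tested.

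In LNCaP, FN1 read 2159, 2153 and 2108 in shControl and 1568, 1544 and 1536 in shETV1 cells in EtOH, and 1085, 1070.5 and 1108 in shControl and 929, 974 and 987 in shETV1 cells with DHT. The 4 groups were separate. DHT lowered FN1 by a log2 change of -0.97 ± 0.04 in shControl (limma adjusted p = 5.03e-09) and -0.68 ± 0.04 in shETV1 cells (adjusted p = 1.05e-07). shETV1 lowered it by a log2 change of -0.46 ± 0.04 in EtOH (adjusted p = 4.85e-05) and -0.17 ± 0.04 in DHT (adjusted p = 0.0249). The interaction was 0.29 ± 0.05 with an adjusted p of 0.0895, and passed with a trended, robust variance (adjusted p = 0.0278, range 0.0278 to 0.318 over alternatives). The DHT call of shETV1 was lost without shControl DHT replicate A (-0.17, adjusted p = 0.0667), B (-0.18, 0.0556) or C (-0.16, 0.0743) or shETV1 DHT replicate A (-0.15, 0.0971), in a range of 0.0111 to 0.986 over alternatives. This call was also lost without the filter (limma adjusted p = 0.0801), with only the groups compared (0.116) and with the ACTB ratio as a covariate (0.0787). The summed marker intensity was 539 to 552 in shControl and 577 to 619 in shETV1 cells in EtOH, and fell to between 465 and 491 with DHT. Its part in the FN1 change was not tested.

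FN1 has 7 probe sets, of which 4 were bright (216442_x_at, 210495_x_at, 211719_x_at and 212464_s_at) and read the same RNA samples, so they are no replicates of each other. Names ending in _x_at mark probe sets that may bind related transcripts. With DHT the 4 gave -1.06 to -1.15 in siControl, -1.28 to -1.39 in siERG, -0.97 to -0.98 in shControl and -0.67 to -0.70 in shETV1 cells. The 4 moved together in each of these comparisons. After siERG in EtOH they gave 0.26 to 0.33 and 3 of the 4 passed, 211719_x_at missing with an adjusted p of 0.0616. After siERG in DHT they gave -0.01 to 0.11 and none passed (limma adjusted p = 0.338 to 0.950, none below 0.05 unadjusted), although 210495_x_at (563 to 581 in siControl, 588 to 643 in siERG) and 212464_s_at (491 to 530.2 against 538 to 583) kept siERG above siControl without overlap. After shETV1 in EtOH all 4 fell, with changes of -0.46 to -0.48, and after shETV1 in DHT they gave -0.17 to -0.19 and 216442_x_at alone passed. Of the 3 dim probe sets, 214701_s_at read 29.5 to 54.5 and did not pass in LNCaP, where it was tested, while 214702_at and 1558199_at were below the limit in both lines.

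With every probe set tested by itself, 4 of 11 probe sets of the members rose after siERG in EtOH and none fell (10.7% of 24013 probe sets were called). With DHT in siControl cells 1 rose and 5 fell (41.9% called). In LNCaP, 6 of 10 fell after shETV1 in EtOH and none rose (3.10% of 23978 called), and with DHT in shControl cells 2 rose and 4 fell (37.8% called). FN1 supplies 4 of the probe sets in each of these counts, or 3 of those that rose after siERG, so they weigh that gene most.

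**Figure D2:**
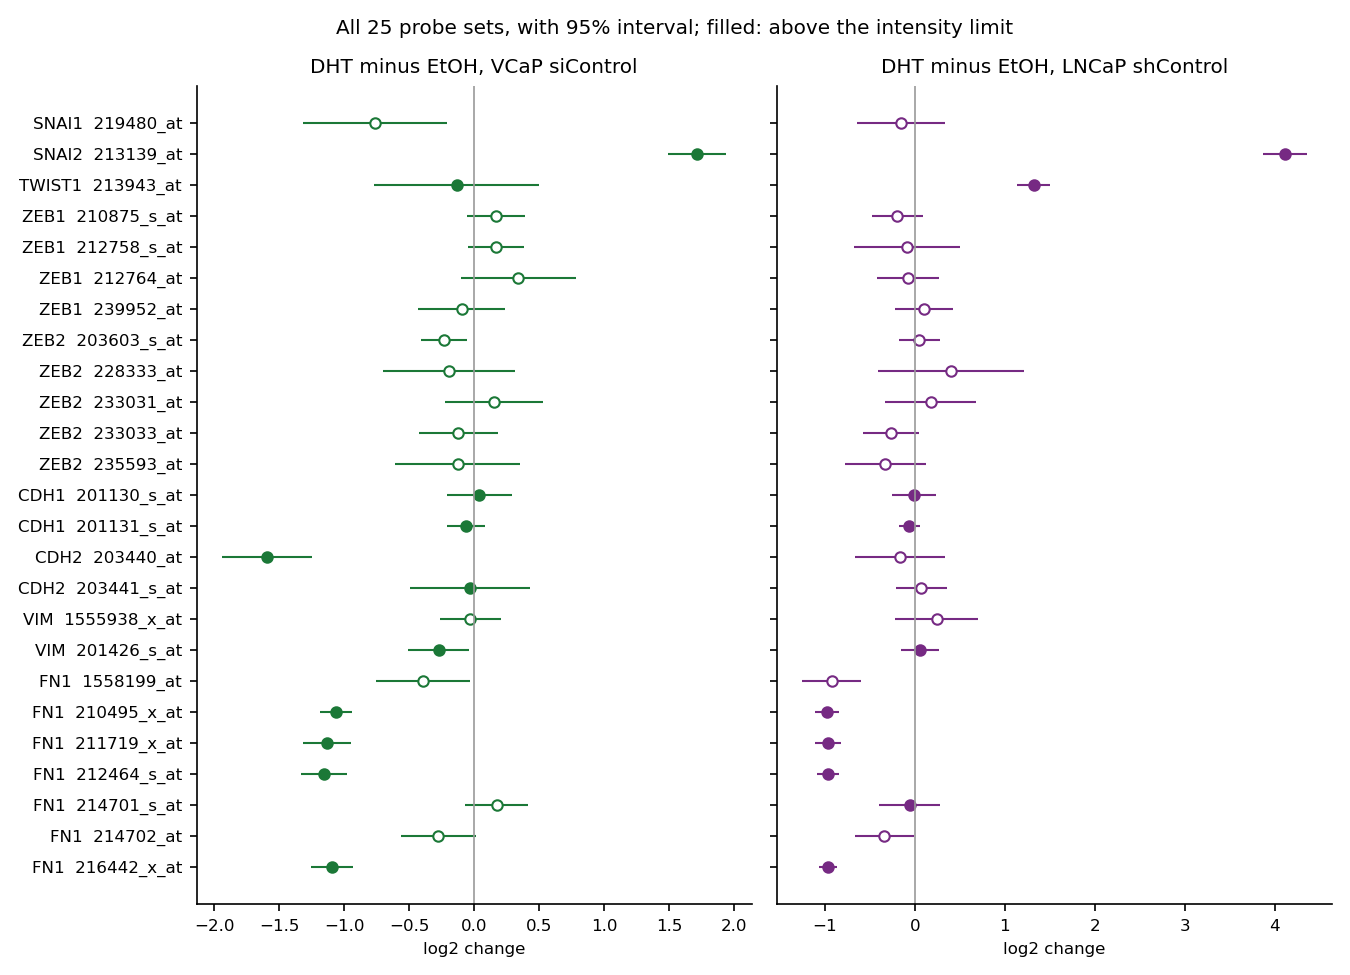
Log2 change with DHT of each of the 25 probe sets in control cells of VCaP (left) and LNCaP (right), points with 95% intervals; filled points passed the intensity limit of their line. The 4 bright FN1 probe sets lie near -1 in both lines, and SNAI2 at 1.72 and 4.11.

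**Figure D3:**
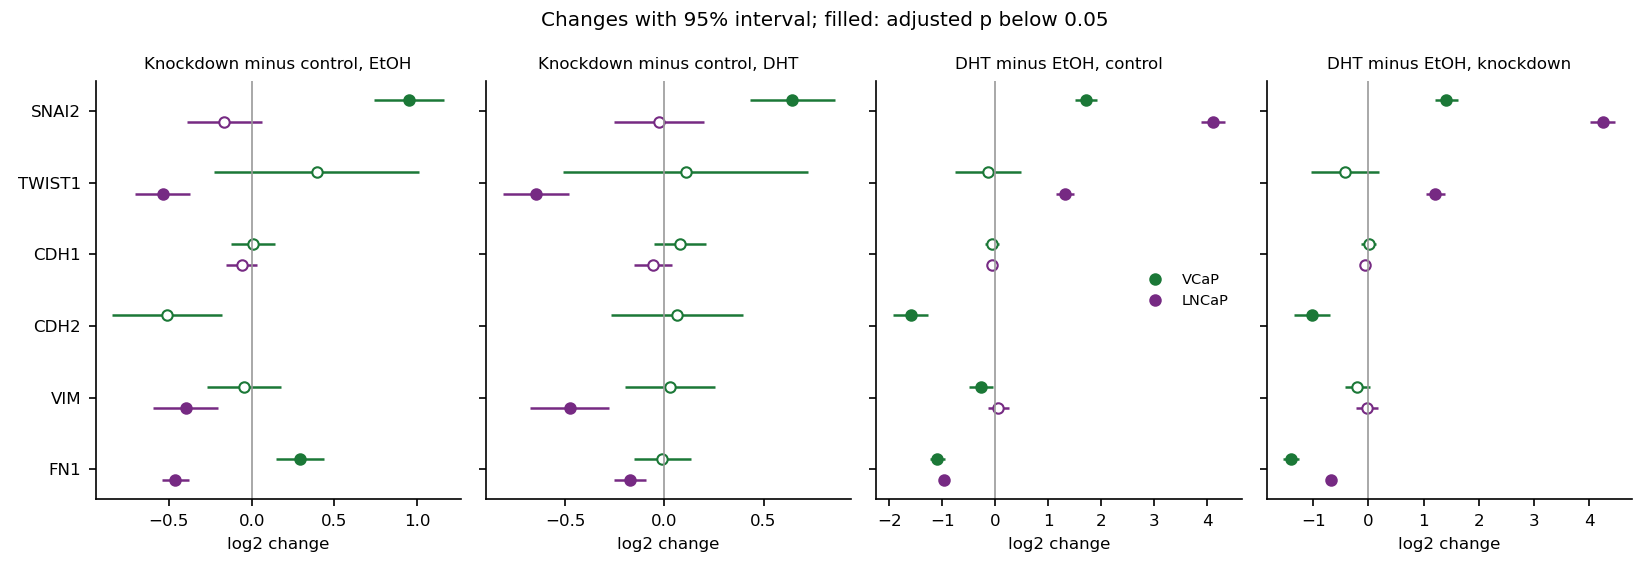
Log2 changes of the tested members with 95% intervals, knockdown minus control in EtOH and in DHT, and DHT minus EtOH in control and in knockdown cells; green is VCaP, purple LNCaP and filled points have an adjusted p below 0.05. After knockdown SNAI2 is raised in VCaP by 0.95 and 0.65, while FN1 lies at 0.29 in VCaP and at -0.46 in LNCaP in EtOH.

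Whether a change differed between VCaP and LNCaP was tested in 1 limma fit of all 24 arrays over the 12305 genes tested in both, which cover 5 members. The response to DHT in control cells differed for SNAI2 and TWIST1, both higher in LNCaP (31.9% of genes called), by 2.40 ± 0.15 (adjusted p = 1.52e-10) and 1.46 ± 0.30 (adjusted p = 0.000982). SNAI2 could enter this fit only by being bright in LNCaP with DHT, so its difference in the DHT response is no independent evidence. Its LNCaP values in EtOH lie below the array medians. For FN1 the difference was 0.13 ± 0.07 (95% interval -0.03 to 0.28) and did not pass. The effect of knockdown in EtOH differed for SNAI2 (-1.12 ± 0.15) and FN1 (-0.75 ± 0.07), in each case lower with shETV1 than with siERG (9.56% called). In DHT it differed for SNAI2 (-0.68 ± 0.15) and VIM (-0.51 ± 0.14), again lower with shETV1 (7.50% called). The knockdowns hit different genes by different agents in different lines, so gene, agent and line cannot be told apart. TWIST1, at -0.93 ± 0.30 in EtOH (adjusted p = 0.0616) and -0.76 ± 0.30 in DHT (adjusted p = 0.154), passed both without VCaP siERG DHT replicate B (-0.93, adjusted p = 0.00378, and -1.13, adjusted p = 0.00174) and the first without its replicate A (-0.93, adjusted p = 0.0226). The ranges over alternatives were 0.00378 to 0.152 and 0.00174 to 0.330. The VIM difference in DHT (adjusted p = 0.0301) was lost on leaving out VCaP siControl DHT replicate A (-0.48, 0.0685) or B (-0.49, 0.0618), siERG DHT replicate A (-0.47, 0.0691) or C (-0.45, 0.0632), LNCaP shControl DHT replicate A (-0.48, 0.0676) or B (-0.52, 0.0522), or shETV1 DHT replicate B (-0.41, 0.0847), in a range of 0.0121 to 0.361. The VIM difference in the DHT response, 0.33 ± 0.14 (adjusted p = 0.0803), passed without shControl EtOH replicate B (0.40, adjusted p = 0.0414, range 0.0414 to 0.210).

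For SNAI2 and FN1 in VCaP, and for each member called in LNCaP, the 5 genes with the highest Pearson correlation over the 12 arrays of the line were listed. The arrays fall into 4 groups, so a high correlation reflects the group means, and it is given as a description. SNAI2 in VCaP was most like AFF3 (r = 0.993), MCUB (0.991), TNFRSF19 (0.991), NSDHL (0.988) and DERL1 (0.987). SNAI2 in LNCaP was most like ERRFI1, NDRG1, EAF2, PRAG1 and TBC1D1, all at 0.998. TWIST1 in LNCaP was most like MSMO1 (0.989), GPR137C (0.987), CADPS2 (0.986), SLC30A1 (0.986) and ACADM (0.985). FN1 was most like SMPDL3A (0.996), ARFGEF1 (0.995), SELENBP1 (0.994), STK32A (0.994) and ARL6IP5 (0.993) in VCaP and MAPRE2 (0.988), NIPAL2 (0.988), EEIG2 (0.987), SLC18B1 (0.987) and CD59 (0.987) in LNCaP. VIM in LNCaP was most like PCDHB5 (0.974), CHN1 (0.957), CRISPLD1 (0.927), COX7B2 (0.923) and H2AJ (0.916).

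The other genes of the programme were taken as lists that were drawn up with earlier results of these data known, so their counts are no independent evidence. Of the transcription factors, 14 further genes linked to the transition were on the array and 8 were tested in each line. With DHT in siControl cells 2 rose and none fell (45.0% of all genes called), a list median of 0.11 against -0.03 for all genes: SOX9, an androgen-linked factor of progenitor cells, by 1.60 ± 0.07 and TCF4 by 0.34 ± 0.10. In siERG cells SOX9 (2.08 ± 0.07) and ID1 (0.19 ± 0.06) rose. SOX9 moved against SNAI2 after knockdown of ERG: it fell in EtOH (-0.92 ± 0.07, adjusted p = 3.25e-05) and in DHT (-0.45 ± 0.07, adjusted p = 0.00253). TCF4 rose after siERG in EtOH (0.38 ± 0.10), a call lost after quantile normalization (0.32, adjusted p = 0.0610) and median centring (0.33, adjusted p = 0.0519). In LNCaP with DHT, SOX9 (0.37 ± 0.09) and TCF4 (0.23 ± 0.08) rose in shControl cells while ID1 (-0.38 ± 0.07) and ID3 (-0.59 ± 0.08), inhibitors of helix-loop-helix factors, fell. These were 4 of 8 (40.8% of all genes called), and the list median was 0.02 against -0.01 for all genes. After shETV1, TCF4 fell in EtOH (-0.34 ± 0.08) and SOX9 in DHT (-0.44 ± 0.09), 1 of 8 in each (4.20% and 5.19% of all genes called).

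The epithelial guardians, factors such as the grainyhead and OVOL proteins that hold the epithelial state, had 9 tested genes. With DHT 2 rose and 4 fell in shControl cells (median 0.06 against -0.01, 40.8% of all genes called) and likewise 2 and 4 in shETV1 cells (37.9% called). GRHL2, which sustains CDH1 transcription, rose by 0.76 ± 0.04 in shControl and 0.92 ± 0.04 in shETV1 cells, GRHL1 rose by 0.51 ± 0.05, and ELF3 fell (-0.76 ± 0.06). In VCaP siControl cells 1 rose and 3 fell with DHT (median -0.03 against -0.03, 45.0% of all genes called), the latter RAB25 (-0.40 ± 0.07), OVOL1 (-0.26 ± 0.05) and OVOL2 (-0.28 ± 0.07). After siERG, OVOL2 fell in EtOH (-0.26 ± 0.07) and RAB25 rose in DHT (0.26 ± 0.07, adjusted p = 0.0479), 1 of 9 in each (11.2% and 8.97% of all genes called), and the RAB25 call was lost after median centring (0.25, adjusted p = 0.0868). After shETV1, GRHL2 fell in EtOH (-0.25 ± 0.04).

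Of the genes of epithelial junctions, 22 were tested in VCaP and 21 in LNCaP. OCLN, the tight junction protein occludin, fell with DHT in all 4 comparisons, from a mean of 4094 to 1289 in shControl (-1.66 ± 0.04, limma adjusted p = 1.49e-10) and from 3777 to 2703 in siControl cells (-0.48 ± 0.05). Its partner MARVELD2 fell in LNCaP (-0.58 ± 0.03 in shControl). CLDN7 (0.73 ± 0.08) and the desmosomal PKP2 (0.69 ± 0.08) rose in siControl cells with DHT while DSG2 fell (-0.58 ± 0.08). In counts, 8 rose and 4 fell with DHT in siControl cells (median 0.03 against -0.03, 45.0% of all genes called), and 4 rose and 6 fell in shControl cells (median 0.01 against -0.01, 40.8% called). These counts lie near the share over all genes. OCLN also fell after siERG in EtOH (-0.29 ± 0.05) and in DHT (-0.34 ± 0.05) and rose after shETV1 (0.19 ± 0.04 and 0.30 ± 0.04). After siERG in EtOH it was the 1 of 22 called, with the list median at -0.02 against 0.01 (11.2% of all genes called).

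Mesenchymal and matrix genes went in both directions. With DHT in siControl cells 2 of 17 rose and 5 fell (median -0.05 against -0.03, 45.0% of all genes called): SDC2 (-1.18 ± 0.07), FBN1 (-0.73 ± 0.05) and CALD1 (-0.55 ± 0.05) fell, and LOX, which crosslinks collagen, rose (0.71 ± 0.05). In shControl cells 3 of 19 rose and 6 fell (median -0.00217 against -0.01, 40.8% of all genes called). LOX rose there by 2.64 ± 0.16, from a mean of 36.4, below the array medians, to 309.7, while FSCN1 (-0.63 ± 0.07), COL1A1 (-0.42 ± 0.05) and CALD1 (-0.37 ± 0.05) fell. Like SNAI2, LOX may have entered the LNCaP tests only through its DHT arrays, so its call is no independent support for the rise. After siERG in EtOH 2 of 17 rose and 3 fell (median 0.03 against 0.01, 11.2% of all genes called), LOX (-0.42 ± 0.05), FBN1 (-0.39 ± 0.05) and CD44 (-0.29 ± 0.07) lower. CALD1 was higher (0.18 ± 0.05), a call lost after median centring (0.13, adjusted p = 0.125). After shETV1 in EtOH 2 of 19 fell and none rose (median -0.05 against 0.01, 4.20% of all genes called): SDC2 (-0.49 ± 0.06) and CALD1 (-0.26 ± 0.05), both of which fell in DHT too (-0.29 ± 0.06 and -0.25 ± 0.05).

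Among the inducers and pathway genes of the transition, 16 were tested in VCaP and 14 in LNCaP. With DHT in siControl cells 5 rose and 7 fell (median -0.18 against -0.03, 45.0% of all genes called), with MET (-1.28 ± 0.10), SMAD3 (-0.98 ± 0.08), JAG1 (-0.72 ± 0.06) and the receptor TGFBR2 (-0.65 ± 0.05) lower. In shControl cells 6 rose and 4 fell (median 0.12 against -0.01, 40.8% of all genes called), with EGFR (0.70 ± 0.05) and JAG1 (0.47 ± 0.05) higher and SMAD7 (-0.67 ± 0.07) and LEF1 (-0.65 ± 0.07) lower. JAG1, a Notch ligand, thus fell with DHT in VCaP and rose in LNCaP. WNT5A rose after siERG in EtOH (0.38 ± 0.06) and in DHT (0.56 ± 0.06) and fell after shETV1 in both (-0.50 ± 0.07 and -0.58 ± 0.07). TGFB2 rose after siERG in both (0.36 ± 0.07 and 0.60 ± 0.07). In counts, 4 of 16 rose and 2 fell after siERG in EtOH (median 0.04 against 0.01, 11.2% of all genes called), and 1 of 14 rose and 2 fell after shETV1 in EtOH (median 0.03 against 0.01, 4.20% called).

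The shares of all genes that rose or fell depend on how arrays are scaled, though the median change of all genes moved by less than 0.1. After siERG in EtOH 690 genes rose and 754 fell, against 393 and 1167 with each array centred on its median. With DHT in siERG cells 2576 rose and 3238 fell, against 3436 and 2450 after centring. After shETV1 in DHT 344 rose and 321 fell, against 224 and 484 after centring and 218 and 429 after quantile normalization. Of the list medians printed above, 6 changed sign with 1 or both of these scalings: those of the mesenchymal genes and the inducers after siERG in EtOH, and those of the transcription factors, guardians, junction genes and mesenchymal genes with DHT in shControl cells.

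**Figure D4:**
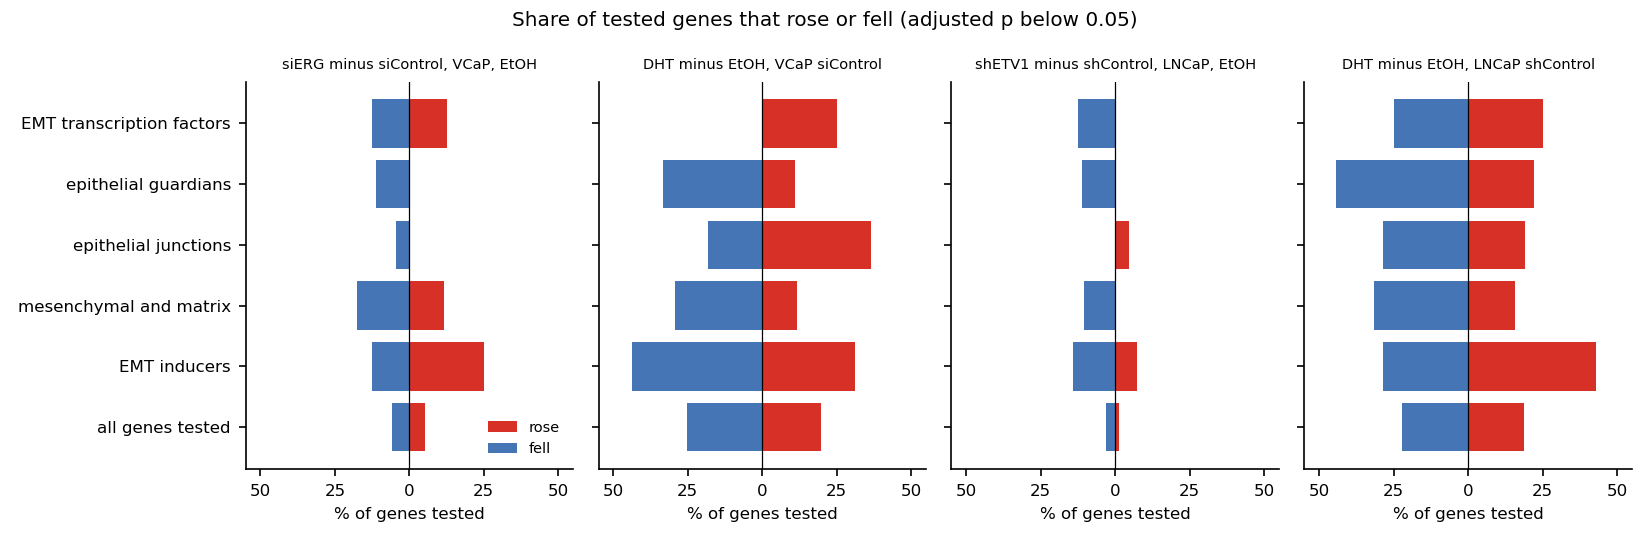
Share of tested genes (percent) of each list that rose (red, right) or fell (blue, left) in 4 comparisons, with all genes tested in the bottom bar. In each DHT panel both directions are filled in most lists, as for all genes, of which 19.6% rose and 25.4% fell in VCaP siControl cells.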

How the data were processed

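Total RNA of 24 cultures was labelled as biotinylated cRNA and hybridised to HG-U133 Plus 2.0 arrays, per the labels' protocols. The authors deposited 1 linear intensity per probe set and array. For the program, background correction and scaling applied, the sources used here give no name. Probe sets were named from the platform annotation: 41097 carry 1 gene, 1801 several and 11777 none. Those with several or none were left out of the gene-level tests.

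The 9 genes and all lists were chosen with earlier results of these data known. Log2(intensity + 16) was fitted per line (12 arrays, 4 groups) with limma 3.58.1 in R 4.3.3, on the probe set of highest mean for each gene, where it exceeded the array median in at least 3 of 12 arrays. Differences between lines came from 1 limma fit of 24 arrays. All adjusted p-values are limma's, by Benjamini-Hochberg over all genes tested, at a threshold of 0.05. The code was tested on simulated data. Figures used matplotlib 3.10.9 and pandas 2.3.3.

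Alternatives were other added constants, other rules for probe sets, no filter, quantile normalization, median centring, a trended and robust variance, only the groups compared, a replicate block, 3' to 5' ratios of GAPDH and ACTB as covariates, and each array left out. Scaling of the other lists' genes was tried after seeing the data. From other lists at most 4 genes a comparison, those of smallest adjusted p, are named. The number of arrays limits the precision.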

Additional observations from a re-analysis of the deposited data

Results flagged for a closer look

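Several responses differed between the cell lines by a limma test of the difference itself, with Benjamini-Hochberg adjustment over 12305 genes. The change of SNAI2 with DHT in LNCaP shControl cells minus that in VCaP siControl cells was 2.40 ± 0.15 on the log2 scale (adjusted p = 1.52e-10). SNAI2 entered the LNCaP tests only through its bright DHT arrays, its EtOH values there lie below the array medians, and over the alternatives, other added constants included, the difference ran from 1.70 to 2.81. The same difference for TWIST1, which rose with DHT in LNCaP (1.32 ± 0.08) and did not pass in VCaP (-0.13 ± 0.28), was 1.46 ± 0.30 (adjusted p = 0.000982). The effect of shETV1 minus that of siERG was -1.12 ± 0.15 for SNAI2 in EtOH (adjusted p = 5.67e-05) and -0.68 ± 0.15 in DHT (adjusted p = 0.00577). For FN1 in EtOH it was -0.75 ± 0.07 (adjusted p = 1.88e-06), and for VIM in DHT -0.51 ± 0.14 (adjusted p = 0.0301).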

How the results depend on the processing

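Over all results for single members, 1703 values under alternatives kept their side of the threshold, 57 lost it, 15 gained it and 1 called value changed sign: FN1 after shETV1 in DHT was 0.0026 (limma adjusted p = 0.986, range 0.0111 to 0.986) with the mean of all its probe sets, dim ones included. Of the 1703, 57 values that passed in neither setting also changed sign, in 22 results, with TWIST1 after siERG in EtOH running from -0.15 to 0.51 and with DHT in siERG cells from -0.71 to 0.44. SNAI2 kept its calls for siERG and DHT under all 24 alternatives tried for each. The count of members called, after shETV1 in DHT 3 as reported, was 1 with the mean of all probe sets, 1 without probe sets ending in _x_at and _s_at and 1 with only the groups compared. Without those probe sets it was 1 for siERG in EtOH, 2 for DHT in siControl, 1 for shETV1 in EtOH and 1 for each difference in knockdown effect between lines. Leaving those probe sets out removes CDH1 and VIM and leaves FN1 only probe sets below the intensity limit. The lower counts without them therefore reflect genes no longer tested, and not calls that failed. With the GAPDH covariate it was 1 for siERG in EtOH and 1 for shETV1 in EtOH. The difference in knockdown effect in DHT gave 1 with the mean of all probe sets, 1 without the filter and 1 with the replicate block. A trended, robust variance gave 1 for the interaction in LNCaP. Summed over the 10 comparisons within lines, whose shares of all genes called run from 0.101% to 45.3%, probe sets tested singly gave 38 calls of 105 and genes 22 of 55, sums that are not to be read against any 1 share.

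On leaving out 1 array at a time the counts ran from 1 to 3 for siERG in EtOH and 1 to 1 for siERG in DHT. They ran from 3 to 4 for DHT in siControl and 3 to 3 for DHT in siERG cells. In LNCaP they ran from 2 to 3 for shETV1 in EtOH and 1 to 3 for shETV1 in DHT. For DHT they ran from 3 to 3 in shControl and in shETV1 cells alike, and for both interactions from 0 to 0. Between lines they ran from 2 to 3 for DHT, 2 to 3 for knockdown in EtOH and 1 to 3 for knockdown in DHT. The reported fits called 37.9% to 45.3% of all genes with DHT and 4.20% to 11.2% after knockdown. They called 0.288% and 0.101% for the interactions, and between lines 31.9% for DHT and 9.56% and 7.50% for knockdown. Shares of all genes under the alternatives are not given here, so a steady count does not set the members apart.

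Replicate letters did not pair the arrays: same-letter deviations correlated at -0.117 to 0.112 in VCaP and -0.218 to 0.125 in LNCaP, and 3 and 2 of 12 arrays were closest to their own letter. With the replicate block VIM lost its calls for DHT in siControl (adjusted p = 0.0802), shETV1 in EtOH (0.0697) and the knockdown difference in DHT (0.0667), and FN1 that for shETV1 in DHT (0.0613). Signal below the array median limits SNAI1, ZEB1, ZEB2, CDH2 in LNCaP and SNAI2 in LNCaP without hormone.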
